A study of Mus musculus with 6 samples.

Results

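The genes described here encode 10 protein subunits of the machinery that cuts pre-mRNA and adds its poly(A) tail, namely *Cpsf1*, *Cpsf2*, *Cpsf3*, *Cpsf6*, *Cpsf7*, *Cstf1*, *Cstf2*, *Cstf3*, *Nudt21* and *Pcf11*. They were taken by gene symbol from the 55421 genes of the deposited RNA-seq table, and all 10 had 1 row each. The list was chosen with earlier results of these data known. The 6 libraries each came from splenic B cells of a separate mouse, 3 WT and 3 hnRNPL-deficient, cultured for 24 h in IL-4 (5 ng/ml) with LPS (5 μg/ml), which activates them. hnRNPL is an RNA-binding protein that regulates alternative splicing, and the comparison asks how its loss alters gene expression in activated B cells. The hnRNPL-deficient mice were *Hnrnpl* F/F with the *CD21-cre* transgene, in which Cre comes on in mature B cells. WT mice carried *CD21-cre* with intact *Hnrnpl*, and the study's methods give the *Rosa* mT/mG reporter to both genotypes, so that GFP+ cells, in which Cre had acted, could be sorted before poly(A) RNA was sequenced. The study's methods put all mice on the C57BL6/J background and give males and females older than 6 weeks. The age of each mouse was not given in the sources used here.

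Most mRNAs end where the nascent transcript is cut a short distance downstream of the hexamer AAUAAA, after which a poly(A) polymerase extends the new 3′ end. The cleavage and polyadenylation specificity factor (CPSF) reads the hexamer and holds the endonuclease, the cleavage stimulation factor (CstF) reads GU-rich RNA downstream, cleavage factor Im (CFIm) reads UGUA upstream, and cleavage factor IIm (CFIIm) links cutting to the end of transcription. Many genes have several such sites, and the abundance of these subunits is known to influence which one is used. In B cells the best known case is *Ighm*, whose choice between poly(A) sites separates secreted from membrane IgM, and CstF-64, the product of *Cstf2*, has long been linked to that choice.

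The hexamer is shown here in the members' own 3′ ends, because these transcripts are themselves substrates of the machinery they encode. The sequences come from the GENCODE vM21 transcripts (GRCm38), taking for each gene its longest principal protein-coding transcript and searching the last 50 bases, on the transcript's own strand, for AATAAA and, failing that, ATTAAA. Capitals mark the hexamer, in DNA letters and 5′ to 3′, with up to 12 bases on each side within the 3′ UTR.
Cpsf2: atttcgctaataAATAAAagatgctgagc
Cpsf6: tcttgtattgaaAATAAAaacaaagttttg
Cpsf7: tgaaaattgtgtAATAAActtgatgacgat
Nudt21: cactgttatttcAATAAAaatatttaaaac
Cstf1: tgtgatttctaaAATAAAttttttttatat
Cstf2: tgtcgtggattcAATAAAtattttaaaag
Cstf3: tcctttgaaaggAATAAAaggacctcaaaa
Pcf11: tacatatacagtATTAAAacttgtgatttt

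These lie at chr12:102006396-102006424 (+) for *Cpsf2*, chr10:117344673-117344702 (-) for *Cpsf6*, chr19:10547621-10547650 (+) for *Cpsf7* and chr8:94015500-94015529 (-) for *Nudt21*. For the *CstF* genes and *Pcf11* they lie at chr2:172382412-172382441 (+) for *Cstf1*, chrX:134086791-134086819 (+) for *Cstf2*, chr2:104665393-104665422 (+) for *Cstf3* and chr7:92643555-92643584 (-) for *Pcf11*. The canonical AATAAA was present in 7 members and only the variant ATTAAA in *Pcf11*. Neither was in the last 50 bases of the *Cpsf1* and *Cpsf3* transcripts. Among 21864 protein-coding genes, 58.6% held AATAAA in this window, 12.6% only ATTAAA and 28.7% neither. The deposited values count reads per gene and do not show which poly(A) site was used.

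The libraries held between 40395186 and 75180749 reads assigned to genes, and hnRNPL-deficient library 3 was the shallowest. Values are the authors' normalized counts, that is, gene read counts scaled between libraries by DESeq2 size factors. *Hnrnpl* itself ranged from 24174 to 25579.7 normalized counts in WT and from 1297 to 2178 in hnRNPL-deficient libraries, so every library matched its label. Several defining markers of other cell types were at or near 0, with *S100a8*, *S100a9*, *Pf4* and *Ppbp* at 0 in all 6 libraries and *Cd3e* at 1.01 or less, but *Thy1*, a T cell marker, ranged from 117 to 356. The plasma cell genes *Xbp1* (11815 to 14650) and *Prdm1* (1233 to 1770), which activated B cells also express, were well above 0, and *Sdc1* ranged from 75.4 to 133. *Jchain*, also on the plasma cell list, was at 26.0 to 117 in WT and 7.07 to 23.4 in hnRNPL-deficient libraries. Its log2 fold change was -2.31 (limma adjusted p = 0.0509). The erythroid list summed to 17.6–38.3 in WT and 55.0–84.8 in hnRNPL-deficient libraries, where *Hbb-bt* rose (limma adjusted p = 0.0235). The myeloid list summed to 260–331 in WT and 1239–1382 in hnRNPL-deficient libraries, almost wholly through *Adgre1*, and the part of these signals in the results below was not tested. The 8 B cell markers summed to 342242–432872 in WT and 326819–400750 in hnRNPL-deficient libraries. *Xist* was at 98507 in WT library 3 and 98219 in hnRNPL-deficient library 2 and at 7.21 or less elsewhere, so each group held 1 library with high *Xist*.

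Means of the 10 subunits in hnRNPL-deficient libraries lay between 82.9% (*Cstf1*) and 113% (*Cpsf7*) of WT. By limma on log2(normalized count + 1), 0 of the 10 passed a Benjamini-Hochberg adjusted p of 0.1 over all 17640 tested genes, whatever their fold change, against 18.0% of all tested genes. None was therefore called by the study's thresholds (adjusted p under 0.1 and at least 1.5-fold), against 11.4% of tested genes in either direction and 4.08% called lower. At an unadjusted p under 0.05 limma gave 1 member, *Cstf1*, against 27.4% of tested genes. On reads recovered from 5 libraries, edgeR's quasi-likelihood test and DESeq2 also passed 0 members at an adjusted p of 0.1, and 0 at an unadjusted p of 0.05.

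The mean was lower in hnRNPL-deficient libraries for 8 members and higher for *Cpsf1* and *Cpsf7*. The median log2 fold change was -0.16 over the 10 members and -0.03 over all tested genes. With quantile normalization these medians were -0.0145 and -0.0254, and without WT library 1 they were -0.07 and -0.02. The 95% intervals of the 10 log2 fold changes all lay between -0.52 and 0.44, inside the 0.58 that corresponds to 1.5-fold, so a change of that size was outside the interval of each of these genes. Smaller differences within these intervals were not resolved for these genes, and an exact permutation test of 1 gene cannot give a p under 0.1. Where a bulk value is lower, fewer cells that express the gene and less of its RNA per cell cannot be told apart.

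**Figure D1:**
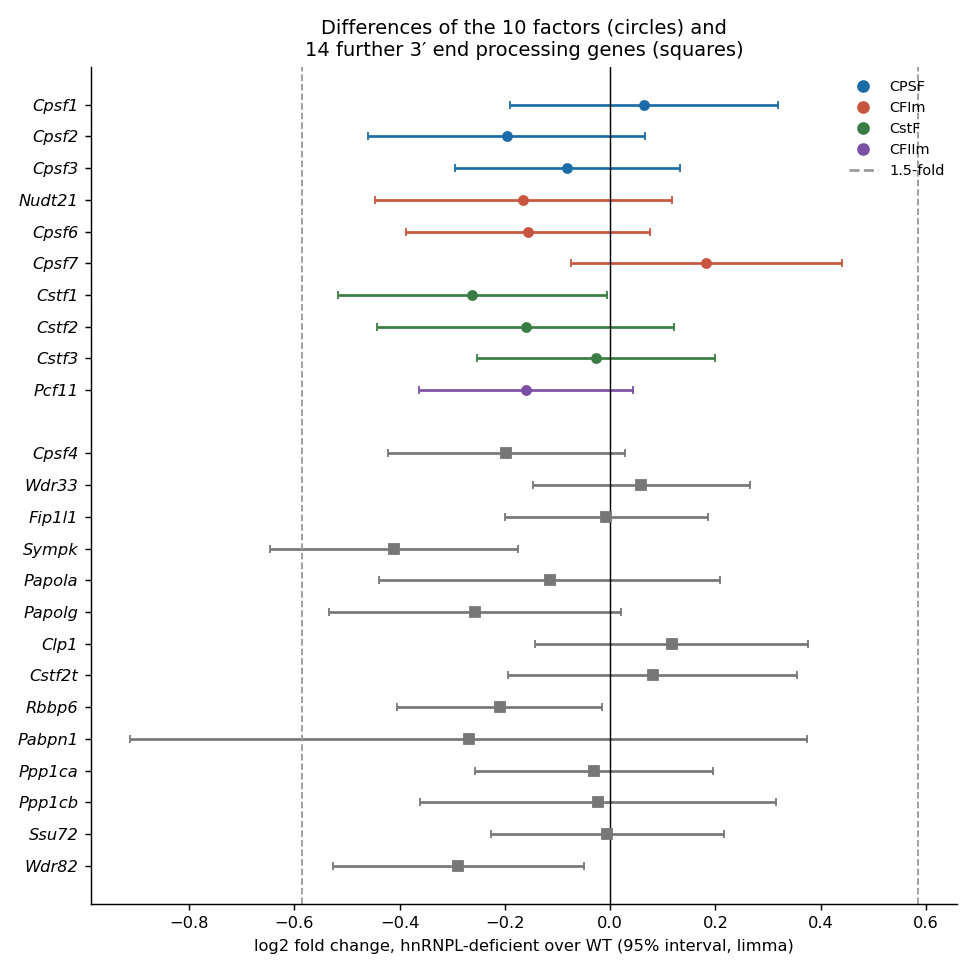
Log2 fold changes (hnRNPL-deficient over WT) with 95% intervals from limma for the 10 factors, coloured by complex, and for 14 further genes of 3′ end processing in grey. All 10 intervals of the factors lie within the dashed lines at 1.5-fold, and among the grey genes *Sympk* has the lowest value, at -0.41.

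CPSF was represented by its large scaffold *Cpsf1* (CPSF160), by *Cpsf3* (CPSF73), the endonuclease that makes the cut, and by *Cpsf2* (CPSF100), the catalytically inactive relative of *Cpsf3* that pairs with it. *Cpsf1* (chromosome 15, 76595803 to 76607591, GRCm38) had 4801, 5365 and 5111 normalized counts in WT libraries 1, 2 and 3 and 5065, 6089 and 4875 in the hnRNPL-deficient libraries. The groups overlapped throughout, and the higher mean of the hnRNPL-deficient group came from its library 2. The log2 fold change was 0.06 (standard error, SE, 0.111, limma adjusted p = 0.746), and -0.03 without that library. *Cpsf2* (chromosome 12, 101975988 to 102006424) had 8732, 7442 and 6783 normalized counts in WT libraries, and 7126, 6525 and 6298 in those lacking hnRNPL. WT library 3 lay below the highest hnRNPL-deficient library, and the log2 fold change was -0.20 (SE 0.115, limma adjusted p = 0.312). *Cpsf3* (chromosome 12, 21285391 to 21315056) was the steadiest of the CPSF genes in WT, with 8435, 7819.6 and 7982 normalized counts. In hnRNPL-deficient libraries 1 and 2 it was at 7988 and 7914, inside the WT range, and at 7033 in library 3. Its log2 fold change was -0.08 (SE 0.0937, limma adjusted p = 0.612).

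CFIm is a tetramer of 2 copies of the UGUA-binding subunit CFIm25, the product of *Nudt21*, with larger partners encoded by *Cpsf6* (CFIm68) or *Cpsf7* (CFIm59), and it is known to favour distal poly(A) sites. *Nudt21* (chromosome 8, 94015496 to 94037031) had 6671, 6072 and 5537 normalized counts in WT libraries, and 6196, 5403 and 4752 in those lacking hnRNPL. The range within either group was wider than the difference between the means, with a log2 fold change of -0.17 (SE 0.124, limma adjusted p = 0.428). *Cpsf6* (chromosome 10, 117344673 to 117380015) was the member with the most reads, at 16757, 15113 and 13971 normalized counts in WT libraries, and 14509, 13132 and 13432 in those lacking hnRNPL. Only WT library 3 fell inside the hnRNPL-deficient range, and the log2 fold change was -0.16 (SE 0.102, limma adjusted p = 0.362). *Cpsf7* (chromosome 19, 10525266 to 10547653) was the member with the highest log2 fold change, at 4061, 5148 and 4621 normalized counts in WT libraries, and 5194, 5562 and 4890.5 in those lacking hnRNPL. WT library 1 was low for this gene, and WT library 2 exceeded hnRNPL-deficient library 3. The log2 fold change of *Cpsf7* was 0.18 (SE 0.113, limma adjusted p = 0.337), and 0.09 without WT library 1.

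CstF was measured through *Cstf1* (CstF-50), *Cstf2* (CstF-64), which carries the RNA-binding domain for the downstream GU-rich element, and *Cstf3* (CstF-77), the scaffold that holds the other two. *Cstf1* (chromosome 2, 172370681 to 172382448) had 4951, 3912 and 4022 normalized counts in WT libraries, and 3583, 3539 and 3565 in those lacking hnRNPL. The 3 hnRNPL-deficient values were nearly identical and all lay below the WT values, of which library 1 stood well above the other two. The mean went from 4295 ± 571 to 3562 ± 22.1 (SD, n = 3 mice each), or 82.9% of WT, with a log2 fold change of -0.26 (SE 0.112, 95% interval -0.52 to -0.01). This was the lowest log2 fold change among the members and did not pass (limma adjusted p = 0.172, with alternatives giving 0.0779 to 0.361). Without WT library 1 the log2 fold change of *Cstf1* was -0.16 (-0.32 to -0.16 over the 6 omissions of a library).

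*Cstf2* (X chromosome, 134059187 to 134086819) had 8691, 7117 and 6599.7 normalized counts in WT libraries, and 7274, 6303 and 6374 in those lacking hnRNPL. The groups overlapped, since WT libraries 2 and 3 lay below hnRNPL-deficient library 1, and the log2 fold change was -0.16 (SE 0.124, limma adjusted p = 0.441). In each group the lowest *Cstf2* value was that of the library with high *Xist*. With *Xist* as a covariate the log2 fold change was -0.15, and without WT library 1 it was -0.05. *Cstf3* (chromosome 2, 104590523 to 104665429) had 3774, 3462 and 3158 normalized counts in WT, and its 3426, 3394 and 3357 in hnRNPL-deficient libraries all fell inside the WT range. Its log2 fold change was -0.03 (SE 0.0993, limma adjusted p = 0.887), and its sign changed without WT library 1 (0.04). *Ighm*, the textbook substrate of CstF-dependent site choice in B cells, had 134945 ± 4776 normalized counts in WT against 158347 ± 7678 without hnRNPL (SD, n = 3 mice each), and did not pass (log2 fold change 0.23, limma adjusted p = 0.224). All 3 hnRNPL-deficient values of *Ighm* lay above the WT values, as was so for 17.7% of tested genes. Its per-gene value sums secreted and membrane forms.

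*Pcf11* (chromosome 7, 92643543 to 92669934), the CFIIm subunit that binds the C-terminal domain of RNA polymerase II and is needed for termination, was the other member whose groups did not overlap. It had 7262, 6896 and 6780.1 normalized counts in WT libraries, and 6047, 6069.99 and 6633 in those lacking hnRNPL. The gap between the groups was 2.11% of the WT mean, and the log2 fold change was -0.16 (SE 0.0894, limma adjusted p = 0.289). Counted with *Cstf1*, 2 of 10 members were lower in every hnRNPL-deficient library than in any WT library, against 16.3% of all tested genes, and 0 were higher, against 17.7% (34.0% in either direction). For both genes the exact permutation p was 0.1, the smallest that the design allows.

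**Figure D2:**
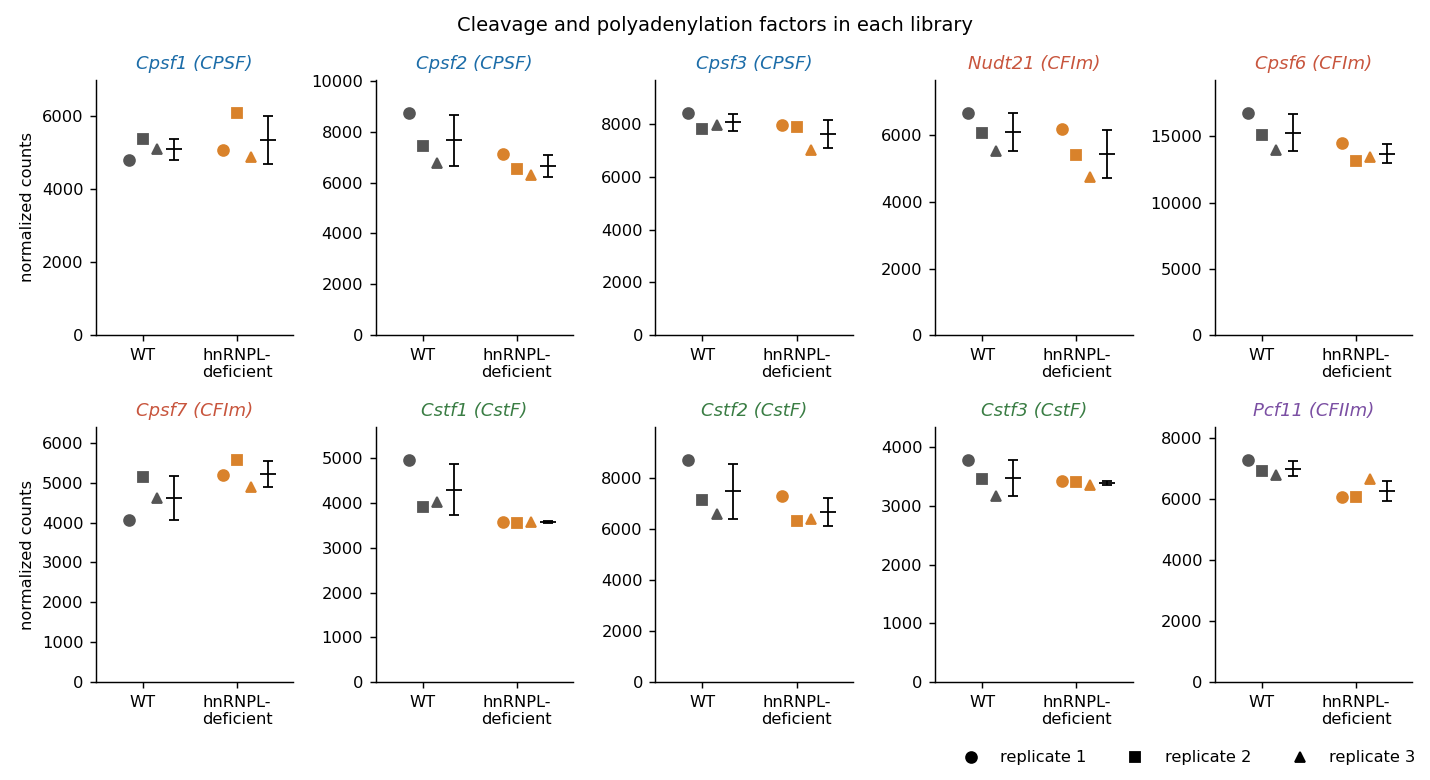
Normalized counts of the 10 factors (y axes from 0) in the 3 WT libraries (grey) and the 3 hnRNPL-deficient libraries (orange), with the mean and SD beside each group and replicates marked by shape. WT and hnRNPL-deficient values overlap for all but *Cstf1* and *Pcf11*, and the WT replicate 1 circle is the highest or lowest point in every panel.

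WT library 1 gave the highest value of the 6 for 8 members and the lowest for *Cpsf1* and *Cpsf7*, the 2 members with a higher mean in hnRNPL-deficient libraries. Without it, 0 members passed. hnRNPL-deficient libraries 2 and 3 held the lowest value for 3 members each. Across all tested genes, the largest changes were far outside the span of these factors, from -3.93 for *Hnrnpl* to 6.15 in log2 fold change.

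**Figure D3:**
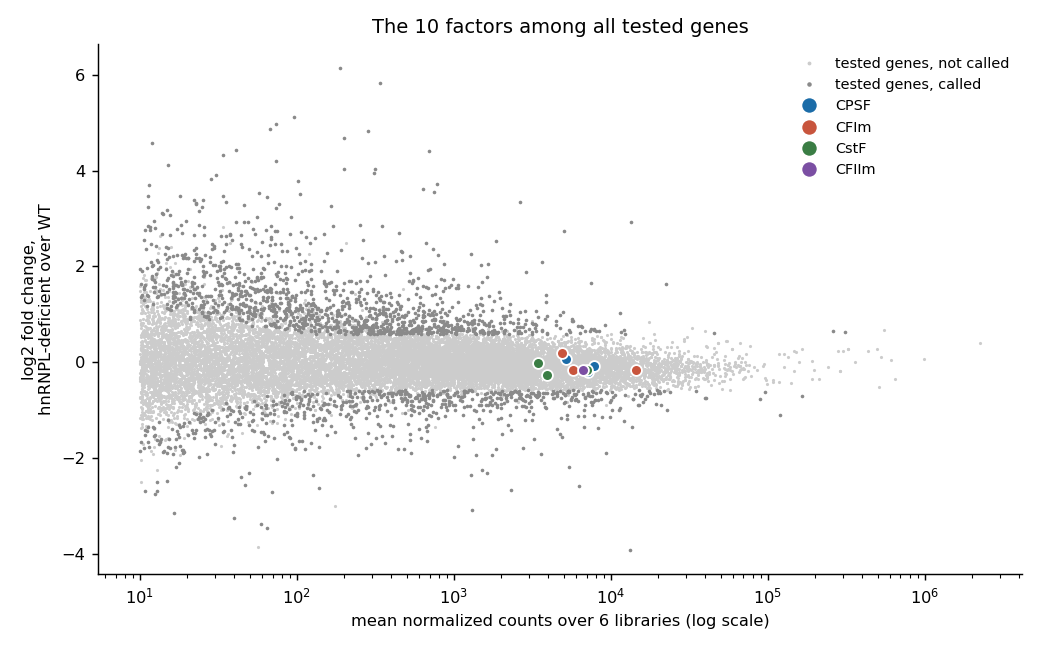
Log2 fold change (hnRNPL-deficient over WT) against mean normalized counts over the 6 libraries (log scale) for the 17640 tested genes, with called genes in dark grey and the 10 factors coloured by complex. The factors lie between -0.26 and 0.18 on the y axis, within the band of genes that were not called.

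Ratios between partners within a library do not depend on the size factor, and 5 of them were compared by a two-sided exact permutation test. The 95% intervals of the log2 ratios are not from that test. They are t intervals that pool the variance of both groups. The *Cpsf6* to *Cpsf7* ratio of normalized counts, which sets the 2 alternative CFIm partners against each other, was 4.13, 2.94 and 3.02 in WT and 2.79, 2.36 and 2.75 in hnRNPL-deficient libraries. All hnRNPL-deficient values were below all WT values, but WT library 1 set much of the distance. The difference of the log2 ratio was -0.34 (95% interval -0.82 to 0.15, exact p = 0.1, adjusted p = 0.25 over the 5 ratios), and -0.18 without WT library 1. *Cstf2t*, an autosomal paralog of *Cstf2* that encodes a second CstF-64 protein, was set against *Cstf2* in the same way. The *Cstf2* to *Cstf2t* ratio was 2.97, 2.59 and 2.79 in WT and 2.33, 2.26 and 2.46 in hnRNPL-deficient libraries, again without overlap. Its log2 difference was -0.24 (95% interval -0.43 to -0.05, exact p = 0.1, adjusted p = 0.25), with -0.29 to -0.19 over the omissions of single libraries. Whether reads were shared between these paralogs was not tested.

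The other ratios overlapped between the groups. *Nudt21* to the sum of *Cpsf6* and *Cpsf7* was 0.306 ± 0.0125 in WT and 0.288 ± 0.0276 in hnRNPL-deficient libraries (SD, n = 3 each, exact p = 0.4). *Cstf2* to *Cstf3* was 2.15 ± 0.134 and 1.96 ± 0.143 (exact p = 0.3). *Cpsf2* to *Cpsf3*, the nuclease pair, was 0.946 ± 0.0929 and 0.871 ± 0.0400 (exact p = 0.3). None of the 5 differences passed, and none could in this exact test, whose smallest p with 3 libraries per group is 0.1.

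**Figure D4:**
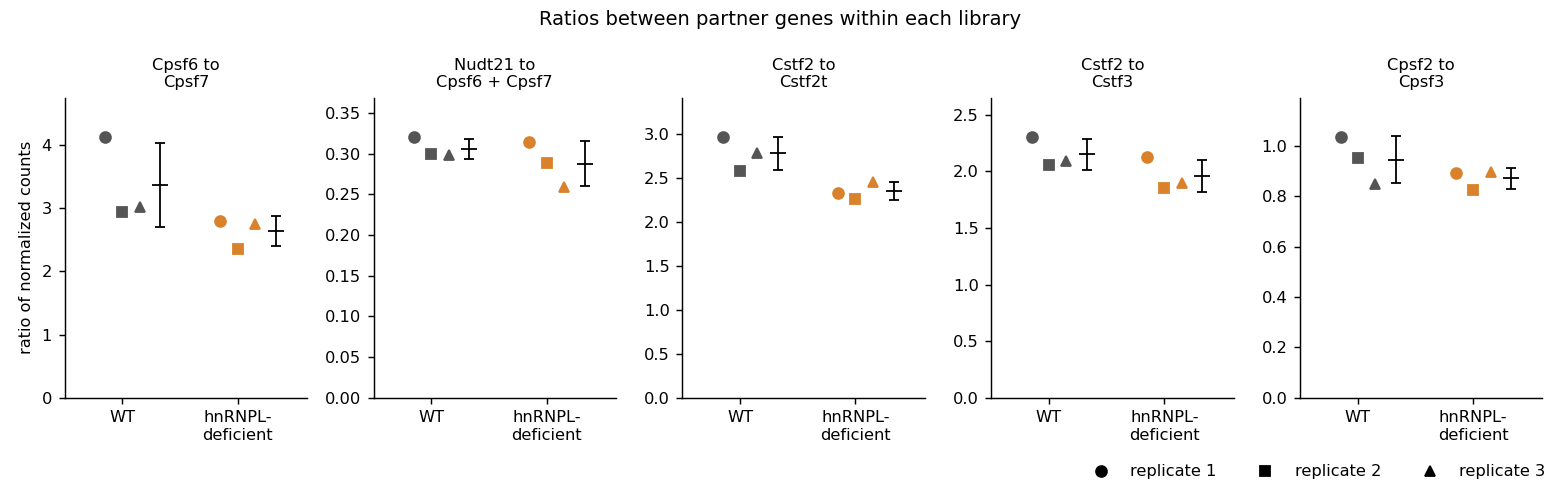
Ratios of normalized counts between partner genes within each library (y axes from 0), for 3 WT (grey) and 3 hnRNPL-deficient (orange) libraries with mean and SD. Values do not overlap for *Cpsf6* to *Cpsf7* and for *Cstf2* to *Cstf2t*, and they overlap for the other 3 ratios.

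Per kb of exon in the GENCODE vM21 gene model, the WT levels of the 10 genes spanned only a 2.60-fold range. The length used joins all annotated exons of a gene, so range and order depend on the annotation. The length of the mRNA expressed in these cells was not measured. The highest was the endonuclease gene *Cpsf3*, at 1530 ± 60.4 normalized counts per kb (SD, n = 3), and the lowest was *Cstf3*, at 589 ± 52.4. Between them came *Cpsf6* (1454 ± 133), *Cpsf2* (1335 ± 173), *Cstf1* (1226 ± 163), *Nudt21* (1139 ± 106), *Cpsf1* (903 ± 50.1), *Pcf11* (892 ± 32.2), *Cstf2* (814 ± 119) and *Cpsf7* (718 ± 84.7). In this order the WT ranges of neighbours overlapped in every case except the step from *Nudt21* to *Cpsf1*, so most neighbours cannot be ranked beyond their spread.

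**Figure D5:**
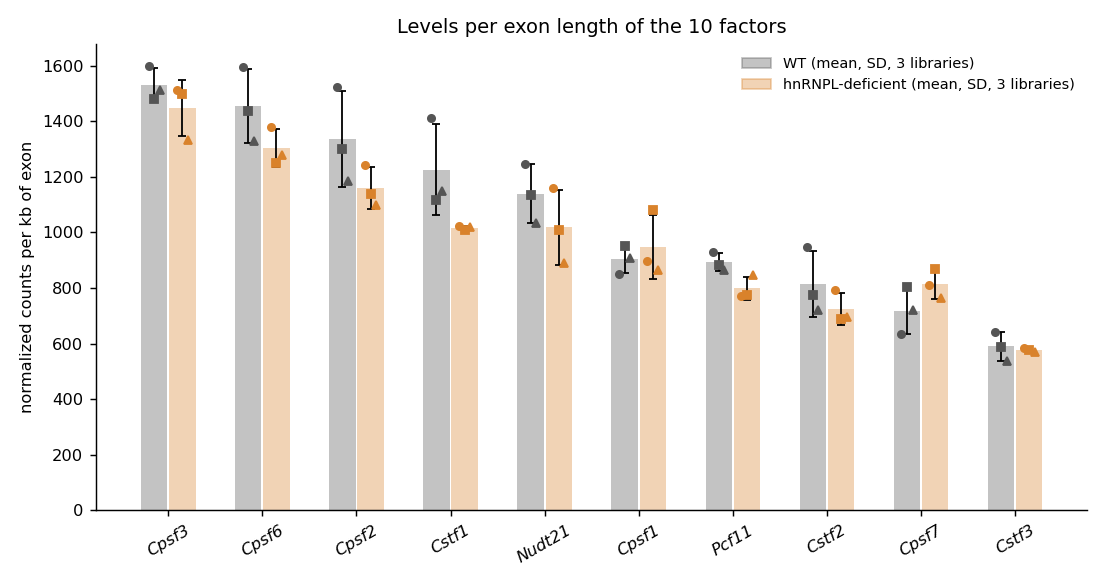
Normalized counts per kb of exon for the 10 factors, ordered by WT mean, with bars for means, error bars for SD and points for the 3 libraries of each group. Levels run from 1530 for *Cpsf3* to 589 for *Cstf3* in WT, and *Cpsf3* and *Cstf3* are also the highest and lowest in hnRNPL-deficient libraries (1448 and 577).

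Of 14 further genes of the cleavage and polyadenylation machinery, 1 passed an adjusted p of 0.1, against 7.97% of tested genes in the same direction, and their median log2 fold change was -0.07. *Sympk*, which encodes the scaffold symplekin, fell from 7402, 8759 and 8473 normalized counts in WT to 6174, 6567 and 5770.4 in hnRNPL-deficient libraries. The groups did not overlap and the mean was 75.1% of WT, with a log2 fold change of -0.41 (SE 0.103, limma adjusted p = 0.0376). It was under the 1.5-fold minimum and did not pass without WT library 2 (adjusted p = 0.143) or WT library 3 (adjusted p = 0.133), or without the mean-variance trend (adjusted p = 0.101), or with quantile normalization (limma adjusted p = 0.129, with alternatives giving 0.0123 to 0.143). *Wdr82* (log2 fold change -0.29), *Rbbp6* (-0.21) and *Cpsf4* (-0.20) did not pass, but their groups did not overlap either. With *Sympk*, 4 of the 14 were lower in every hnRNPL-deficient library, against 16.3% of tested genes, and 0 were higher, against 17.7%. Near-flat values were those of the hexamer-binding subunit gene *Wdr33* (9373 ± 538 and 9760 ± 359) and of *Fip1l1*, which tethers the polymerase (5725 ± 167 and 5697 ± 132). The poly(A) polymerase gene *Papola* averaged 24512 ± 4730 in WT against 22419 ± 1749 without hnRNPL. *Pabpn1*, the nuclear poly(A)-binding protein gene, overlaps another gene on its own strand and is uncertain.

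Among 21 regulators of poly(A) site choice, 5 passed (23.8%) and all were lower in hnRNPL-deficient libraries, against 7.97% of tested genes lower and 18.0% in either direction. The median log2 fold change of the list was -0.20, against -0.03 over all tested genes. With equal totals, quantile normalization or a replicate block, 1 of the regulators that passed was higher. *Srsf7*, an SR protein that can recruit CFIm factors, fell from 9621 ± 760 to 6637 ± 523 normalized counts (log2 fold change -0.54, adjusted p = 0.0147 from limma). *Hnrnph1*, which binds G-rich RNA near poly(A) sites, fell from 14653 ± 824 to 10812 ± 897 (log2 fold change -0.44, adjusted p = 0.0266). The others were *Srsf3* (-0.34), *Snrnp70* (-0.32), whose U1 snRNP protects transcripts from premature cleavage, and *Hnrnpc* (-0.31). These calls held in 7, 9 and 6 of 18 alternatives and were lost with quantile normalization, with no filter on low values and with no mean-variance trend. *Ell2*, the elongation factor that promotes the secretory IgM site, averaged 3360 ± 735 in WT against 4276 ± 337 without hnRNPL and did not pass (log2 fold change 0.37, adjusted p = 0.162 from limma). Without WT library 2 only 1 of the 21 passed, only 2 did when WT library 3 or the first hnRNPL-deficient library was omitted, and 3 did when hnRNPL-deficient library 2 was.

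Integrator is a separate cleavage complex whose nuclease INTS11 is a relative of CPSF73. The list of 17 tested genes used for it also held genes of the SOSS complex, so its shares are not those of Integrator alone. Of the 17, 4 passed (23.5%) and all were lower, against 7.97% of tested genes lower and 18.0% in either direction. The median log2 fold change of the list was -0.08. *Ints2* fell from 5512 ± 461 to 3587 ± 226 normalized counts (log2 fold change -0.62, adjusted p = 0.00766 from limma) and was the only gene of the 3′ end processing lists past both thresholds. *Ints14* (-0.48), *Ints3* (-0.41) and *Ints5* (-0.55) passed the adjusted p alone. *Ints5* overlaps another gene on its own strand and is uncertain, and it passed in 13 of 18 alternatives. The nuclease gene *Ints11* did not pass, at 2430.3 ± 155 in WT against 2807 ± 518 without hnRNPL (adjusted p = 0.436 from limma). Leaving out WT library 2 or 3, or the first hnRNPL-deficient library, left 2 subunits that passed. The single direction depended on the setting. With equal totals or a replicate block, 2 genes of the list that passed were higher and 4 lower. With quantile normalization 1 was higher and 4 were lower.

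In the remaining lists, 2 of 15 genes of termination and poly(A) binding passed (13.3%, against 7.97% of tested genes lower and 18.0% in either direction), with a median log2 fold change of -0.08, namely *Pabpc4* (log2 fold change -0.46) and *Ddx17* (-0.34), and 0 did once WT library 2 or 3, or the first hnRNPL-deficient library, was omitted. Of 9 genes of mRNA export and cap binding, with a median of -0.26, 2 passed (22.2%, against the same shares), *Thoc3* (-0.41) and *Alyref* (-0.36), and 0 did without any single library other than hnRNPL-deficient library 1. Of 7 genes of histone mRNA 3′ end processing, whose transcripts are cut without polyadenylation, 0 passed by limma, 1 had an unadjusted p under 0.05, and their median log2 fold change was -0.30. A list of 15 DNA replication genes, given for the proliferative state of the cells, had a median of -0.53, and all 15 log2 fold changes were negative. Of the 15, 8 passed as lower (53.3% against 7.97% of tested genes, and 3 genes without WT library 2), among them *Cdc6* (-0.85). The part of that state in the values of the factors was not tested.

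*Cstf1* had the smallest adjusted p among the members, and the genes whose pattern over the 6 libraries was most like its own were sought among the 8949 whose mean reached 500 normalized counts. The closest was *2700049A03Rik*, with a root mean square difference of 0.0211 in centred log2 values, followed by *Ccdc58* (0.0298) and *1700021F05Rik* (0.0320). Having been chosen for this, each was highest in WT library 1 and nearly constant in the hnRNPL-deficient libraries, as *Cstf1* was.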

How the data were processed

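RNA-seq of GFP+ splenic B cells from 3 WT and 3 hnRNPL-deficient mice was analysed, with samples grouped by the labels. The authors trimmed reads with fastp 0.23.1, aligned them to mm10 with STAR 2.7.9a, counted them per gene with featureCounts in a strand-specific way and divided them by DESeq2 (1.38.2) size factors. The deposited signal is this normalized count. The table also holds the authors' mean, log2 fold changes, standard errors and test statistics (a score) and both raw and adjusted p-values from DESeq2, none of which was used.

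limma 3.58.1 (R 4.3.3) was run with a mean-variance trend on log2(normalized count + 1) over the 17640 genes whose mean reached 10. The fold changes are on that scale, which slightly understates changes. Members were matched to GENCODE vM21 on GRCm38 (10 of 10 by identifier), whereas the authors used a later release. Reads were whole multiples of 1 step in all 6 libraries (100% of values, within 0.01 read), but the automatic test for whole reads did not read hnRNPL-deficient library 2, so edgeR 4.0.16 and DESeq2 1.42.0 used the other 5 libraries and called 1707 and 1889 genes. Alternatives were 2 pseudocounts, 3 filters, 2 scalings, no trend, a replicate block, an *Xist* covariate and each library left out. The fits were tested on simulated data.

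Named genes were the members, *Hnrnpl*, *Ighm*, *Xist*, partners in ratios, list genes past the adjusted p, and the 3 genes most like the member with the smallest adjusted p. Other named genes (*Wdr33*, *Fip1l1*, *Wdr82*, *Rbbp6*, *Cpsf4*, *Papola*, *Pabpn1*, *Ell2*, *Ints11*, *Hbb-bt* and other markers) were chosen after their values were seen. The members and lists were chosen with earlier results of these data known. Protein sequences were not used here.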

Additional observations from a re-analysis of the deposited data

How the results depend on the processing

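No member was called under any of the alternatives run, and 0 members passed an adjusted p of 0.1 except with the replicate block, where 1 did (*Cstf1*, adjusted p = 0.0779 from limma). The labels do not say whether the replicate numbers pair the samples. Deviations of same-numbered libraries had correlations of 0.583, 0.315 and -0.0335 over 12392 genes, and not every library correlated best with its own number. The block called 2773 genes against 2003. Since every replicate number occurs in both groups, the block cannot change a difference between the group means. The median of the members (-0.16) and the 5 ratio differences (-0.34, -0.09, -0.24, -0.13 and -0.12) are therefore the same with and without it. The median of the members was -0.0145 with quantile normalization, against -0.16, and ranged from -0.20 to -0.07 with each library left out. The count of all genes called was 1274 with a mean of at least 100, and ranged from 1333 (without WT replicate 3) to 1801 with each library left out. Of the called genes 64.1% were higher, against 70.3% after scaling to equal totals and 57.5% with quantile normalization.

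Signs turned for *Cstf3* with equal totals (0.0284), quantile normalization (0.0476) and edgeR (0.00891), for *Cpsf3* (0.0521) and *Cpsf6* (0.00254) with quantile normalization, and for *Cpsf1* with DESeq2 (-0.0179). With each library left out, *Cstf3* ranged from -0.0916 to 0.0368 and *Cpsf1* from -0.0338 to 0.127. The cause was not tested. The *Cpsf2*, *Cpsf7*, *Cstf1*, *Cstf2*, *Nudt21* and *Pcf11* values kept their sign in 18 of 18 alternatives. The filters, the missing mean-variance trend and the replicate block cannot alter a fold change, and the pseudocounts barely moved it. Only the scalings, the *Xist* covariate, edgeR, DESeq2 and the omissions of a library put these signs at risk. Settings for the further gene lists were run after seeing the data. The count of regulators of poly(A) site choice that passed ranged from 1 to 11, that of genes on the Integrator list from 2 to 6.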

Other observations

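RefSeq promoters (windows around the gene start, mostly upstream of it, GRCm38.p6) were matched for 9 of the 10 members. Searched on both strands, CACGTG, the E-box core, was in 1 of the 9 (*Cstf1*), against 7.15% of 32851 promoters. CCAAT was in 3 (*Cstf3*, *Nudt21* and *Pcf11*), against 37.4%, and GGGCGG in 5 (*Cpsf6*, *Cpsf7*, *Cstf2*, *Cstf3* and *Pcf11*), against 35.7%. TTCCCGC was in 1 (*Cstf2*), against 4.60%, and TTGGCGC was in 0, against 2.45%. These are descriptions of the letters in these windows.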
